A study of Mus musculus with 25 samples.

Results

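The 10 genes described here stand for antigen presentation and for macrophages, and were followed in mouse calf muscle. They are 4 genes of MHC class II presentation (*H2-Aa*, *H2-Ab1*, *H2-Eb1* and *Cd74*), 3 genes of MHC class I (*H2-D1*, *H2-K1* and *B2m*) and 3 genes that macrophages make in quantity (*Lyz2*, *C1qa* and *C1qb*). They were chosen by name, with earlier results of these data known, and all 10 were present among the 8829 genes of the table. Their ranks among all genes are therefore descriptions. Messenger RNA was sequenced from the gastrocnemius of 25 male SAMP8 mice, an inbred line with accelerated senescence. Of these, 11 mice received vehicle (Control) and 14 received thymol, a plant phenol, at 20 mg/kg per dosing day (Thymol), in both cases by gavage on 5 days of the week, from 8 months of age for 3 months. Each mouse gave 1 library of QuantSeq 3′ tags, which read the end of a transcript once, so that a count does not grow with transcript length. The questions were how far the genes of the 3 roles differ in level, how far each gene varies and co-varies between mice, and whether thymol moved any of them.

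MHC class I molecules display peptides from inside the cell. They consist of a heavy chain, encoded in the mouse by genes such as *H2-K1* and *H2-D1*, and the light chain β2-microglobulin, encoded by *B2m*, and almost every nucleated cell makes them. MHC class II molecules display peptides from ingested material, are pairs of an α and a β chain that are escorted by the invariant chain CD74, and are largely made by professional antigen-presenting cells such as dendritic cells, B cells and activated macrophages. In resting muscle, resident macrophages lie between the fibres, and they make lysozyme (*Lyz2*) and the complement component C1q, of which *C1qa* and *C1qb* encode the A and B chains.

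On GRCm38, with the GENCODE M21 annotation, the class I heavy chains and the class II chains lie together on chromosome 17, with *H2-K1* at 33996017-34000347, *H2-Ab1* at 34257689-34269419, *H2-Aa* at 34282744-34287823, *H2-Eb1* at 34305867-34316674 and *H2-D1* at 35262730-35267499. The gene of the class I light chain, *B2m*, lies elsewhere, on chromosome 2 at 122147686-122153083. *C1qb* (136880129-136886187) and *C1qa* (136895917-136898803) are neighbours on chromosome 4, and *Lyz2* is on chromosome 10 at 117277331-117282321. *H2-Eb1* overlaps *Gm20513* and *B2m* overlaps *Patl2* on the opposite strand, and whether the counting used strand is not given in the sources used here.

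Stretches of promoter are shown for 5 genes because short elements are known in class I and class II promoters. They also show how alike the promoters of *H2-K1* and *H2-D1* are. They were read from RefSeq promoter windows on GRCm38.p6, each running from 250 bases before to 50 bases after a gene's start and present for 7 of the 10 genes, and are given 5′ to 3′ on the gene's strand. Class II promoters carry an X box, bound by the RFX complex, and a Y box, bound by NF-Y, on which the coactivator CIITA assembles. Capitals mark the X box core GCAACNGAT and the Y box ATTGG, on either strand. The first is the *H2-Aa* promoter at chr17:34287854-34287921 (minus strand) and the second the *H2-Eb1* promoter at chr17:34305764-34305848 (plus strand).
H2-Aa: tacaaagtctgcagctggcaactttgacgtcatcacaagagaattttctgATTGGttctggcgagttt
H2-Eb1: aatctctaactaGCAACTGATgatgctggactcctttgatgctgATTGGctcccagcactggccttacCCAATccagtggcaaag

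Among all 32851 promoter windows of this length, 0.414% held the X box core and 37.4% the Y box, so that only the first is rare. *H2-Eb1* held both, and *H2-Aa* held the Y box without a match to the 9-letter X box core. In class I promoters, NF-κB and interferon regulatory factors are known to act on a shared upstream enhancer. The NF-κB core GGGGATTCC and, on the opposite strand, the IRF pattern GAANNGAAA are in capitals in the stretches of *H2-K1* (chr17:34000417-34000470, minus strand) and *H2-D1* (chr17:35262911-35262964, plus strand). In *B2m* (chr2:122147536-122147650, plus strand) the capitals mark the IRF pattern GAAANNGAA and the Y box. The windows of *H2-K1* and *H2-D1* held the Y box as well, outside the stretches shown, so it was not particular to class II.
H2-K1: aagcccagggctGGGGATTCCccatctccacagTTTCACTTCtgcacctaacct
H2-D1: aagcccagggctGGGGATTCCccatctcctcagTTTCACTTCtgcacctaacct
B2m: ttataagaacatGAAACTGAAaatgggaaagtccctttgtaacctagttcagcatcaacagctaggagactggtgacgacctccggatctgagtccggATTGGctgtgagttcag

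The *H2-K1* and *H2-D1* stretches were identical at 53 of 54 bases (98.1%). The NF-κB core was present in 0.25% of all windows, GAAANNGAA in 8.56% and GAANNGAAA, a pattern added after the sequences were seen, in 7.52%. The last letters searched, GAGGAA for the macrophage factor PU.1, were in 28.3% of all windows and, of the 7 genes with a window, in *C1qb*, 30 bases before the start. The *Lyz2* window held no match to any of the 6 patterns. A match is a description of the sequence, and binding was not measured.

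Depth over the genes of the table was 4463818 to 9463418 reads per mouse with a median of 7503259. The 10 genes together took 0.0316% to 0.0903% of these reads, with a median of 0.0479%. Of the myofibre markers of the labelled tissue, 10 of 10 were present, and their summed level was 113391 to 154360 CPM (read counts scaled to library size) over the mice. None of the markers listed for neutrophils (8), T and NK cells (12) or B cells (7) was among the genes analysed here, and of 8 dendritic cell markers only *Zbtb46* was, at 3.77 to 13.6 CPM. Its r with the 4 class II genes lay between -0.0028 and 0.16 over the 25 mice. In whole muscle, fewer cells of a type and less RNA per cell cannot be told apart. A mouse labelled Control 18 stood apart from the rest along the first principal component of all genes and had the highest summed level of 18 other macrophage genes, 2052 CPM against a Control median of 768 CPM. Control 18 and Control 35, which was highest for class II (below), also had the highest shares of mitochondrial reads of all 25 mice (33.9% and 31.8%) and the highest shares of reads in the 10 most abundant genes (47.2% and 46.5%). The part of these shares in the high values of the 2 mice was not tested.

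The class I genes *B2m* and *H2-D1* were the most abundant of the 10, at 7.53 ± 0.39 and 6.93 ± 0.42 log2 CPM (mean ± SD, n = 25 mice). In 25 of 25 mice *B2m* was above *H2-D1* and *H2-D1* was above every one of the other 8 genes. The other heavy chain gene, *H2-K1*, was at 4.84 ± 0.73 log2 CPM, which is 4.28-fold below *H2-D1* on the mean of the within-mouse differences. The difference between the heavy chains ranged from 0.27 to 3.20 log2 units between mice, so the order was fixed and the distance was not. *H2-D1* and *H2-K1* share part of the sequence that 3′ tags come from. Of the 31-base words in the last 500 bases of their annotated transcripts, 34.5% of those of *H2-D1* and 26.4% of those of *H2-K1* occur in other genes as well, above all in each other. Reads that fall there may be lost or misplaced, and MHC sequences also differ between mouse strains and the reference genome. The latter bears on the class II chains as well. The effect of either on these levels was not tested, and the levels of *H2-D1*, *H2-K1*, *H2-Aa*, *H2-Ab1* and *H2-Eb1*, and the order among them, are uncertain to that extent.

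Class II genes lay at the level of the macrophage genes and of *H2-K1*. Within class II, *H2-Aa*, the α chain of the I-A molecule, was at 4.73 ± 0.65 log2 CPM, *Cd74*, the invariant chain gene, at 4.49 ± 0.69, *H2-Eb1*, the β chain of I-E, at 3.99 ± 0.61 and *H2-Ab1*, the β chain of I-A, at 3.78 ± 0.67 (SD, n = 25). *H2-Aa* exceeded both β chain genes in 25 of 25 mice, and it was 1.93-fold above its partner *H2-Ab1*. *H2-Aa* exceeded *Cd74* in 19 of 25 mice and *H2-Eb1* exceeded *H2-Ab1* in 16 of 25, so these neighbours were not separated in every mouse. *Cd74* lies apart from the other class II genes, on chromosome 18 at 60803848-60812652, where it overlaps *Mir5107* on the same strand. Among macrophage genes, *Lyz2* was at 5.24 ± 0.62, *C1qa* at 4.91 ± 0.60 and *C1qb* at 3.90 ± 0.69 log2 CPM. *Lyz2* and *C1qa* exceeded *C1qb* in 25 of 25 mice, although the 2 C1q chains are built into one protein, and *Lyz2* exceeded *C1qa* in 22 of 25. Of the 31-base words in the last 500 bases of *Lyz2*, 36.2% are shared with its close copy *Lyz1*. Between roles the order was loose, and *C1qa* exceeded *H2-K1* in 13 of 25 mice and *H2-Eb1* exceeded *C1qb* in 12 of 25.

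**Figure D1:**
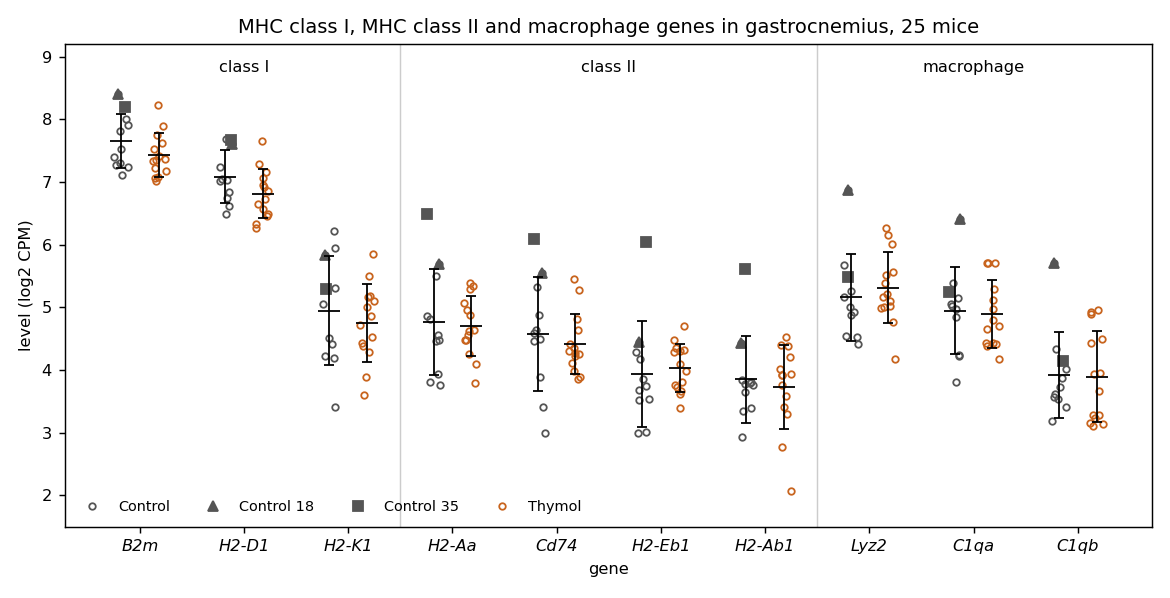
Level in log2 CPM (y axis) of each of the 10 genes (x axis) in 11 Control mice (grey) and 14 Thymol mice (orange). Each point is a mouse, horizontal marks and bars are the mean and SD of a group, and the filled triangle and square are Control 18 and Control 35. The groups overlap for each gene, Control 35 is highest for the 4 class II genes and Control 18 for the 3 macrophage genes and *B2m*.

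Class II genes varied widely between mice, and a single mouse was at the top of all 4. *H2-Ab1* was lowest at 2.94, had a median of 3.77 and was highest at 5.62 log2 CPM in Control mice, and had 2.07, 3.92 and 4.53 for the same values in Thymol mice. The lowest value, in Thymol 3, rests on 21 reads, and the highest, in Control 35, on 400 reads, an 11.7-fold range. *H2-Eb1* ranged from 2.99 through 3.74 to 6.04 in Control mice and from 3.40 through 4.04 to 4.70 in Thymol mice (lowest, median, highest). Control 35 therefore lay above every Thymol mouse for *H2-Eb1*, and by the widest gap among the 4 genes. *H2-Aa* ranged from 3.76 through 4.57 to 6.48 in Control mice and from 3.79 through 4.63 to 5.39 in Thymol mice. *Cd74* ranged from 2.99 through 4.59 to 6.08 in Control mice and from 3.86 through 4.29 to 5.45 in Thymol mice. For each of the 4 genes the Thymol values lay below the highest Control value, and Control 35 was the highest mouse of all 25.

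Within class I, *B2m* and *H2-D1* had a narrower range than *H2-K1*. *B2m* ranged from 7.11 through 7.52 to 8.40 log2 CPM in Control mice and from 7.01 through 7.36 to 8.22 in Thymol mice, a 2.62-fold range over all mice. *H2-D1* ranged from 6.48 through 7.03 to 7.69 in Control mice and from 6.27 through 6.79 to 7.65 in Thymol mice, a 2.67-fold range. *H2-K1* ranged from 3.42 through 5.05 to 6.21 in Control mice and from 3.6 through 4.79 to 5.85 in Thymol mice, a 6.92-fold range. The heavy chain genes did not peak together: Control 10 had the highest *H2-K1* of all mice (6.21) and the lowest *H2-D1* of the Control mice (6.48).

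The macrophage genes shared their highest mouse, Control 18, where *Lyz2* reached 6.87, *C1qa* 6.41 and *C1qb* 5.71 log2 CPM. *Lyz2* ranged from 4.42 through 5.0 to 6.87 in Control mice and from 4.18 through 5.19 to 6.27 in Thymol mice. *C1qa* ranged from 3.81 through 5.03 to 6.41 in Control mice and from 4.18 through 4.75 to 5.71 in Thymol mice. *C1qb* ranged from 3.18 through 3.73 to 5.71 in Control mice and from 3.11 through 3.80 to 4.96 in Thymol mice. Control 15 was the lowest Control mouse for all 3, and each gene spanned between 6.04-fold and 6.46-fold over the 25 mice.

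Set beside all genes, the spread was large. The SD over 25 mice exceeded the 95th percentile of all 8829 genes (0.57 log2 units, against a median of 0.28) for 8 of the 10 genes, while *H2-D1* was at the 81.9th and *B2m* at the 78.2th percentile. Highly expressed genes varied less in this table, with a median SD of 0.29 near the level of *H2-Ab1* and 0.16 near that of *B2m*, so each gene was also set beside the other genes within 0.5 log2 units of its mean level. There *B2m* had a larger SD than 95.2% of 352 genes, *H2-D1* than 96.3% of 570 genes, and *H2-K1*, the most variable, than 99.3% of 1693 genes. The SD expected from counting reads made up between 1.04% (*B2m*) and 5.4% (*H2-Ab1*) of the variance, counting error only, since PCR reads without molecular identifiers are not independent molecules. The spread rests in part on the 2 mice: without Control 35 the number above the 95th percentile was 5, and without Control 18 and Control 35 together it was 3 (*Cd74*, *H2-K1* and *C1qb*). *H2-Eb1* changed most, from an SD of 0.61 to 0.45 without Control 35. In Control mice the SD of *H2-Eb1* was 0.84 and that of *Cd74* 0.91, against 0.38 and 0.48 in Thymol mice, and no test of these SDs was made.

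**Figure D2:**
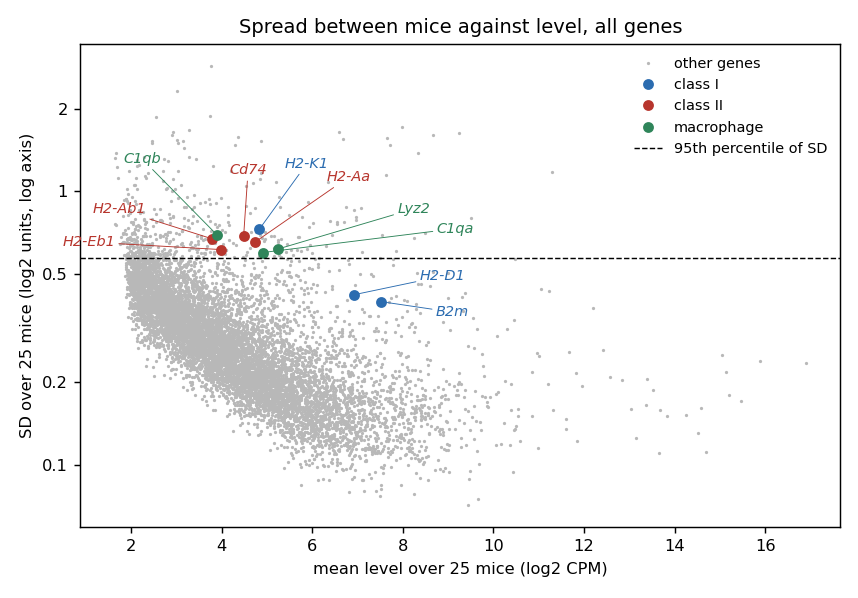
SD over 25 mice in log2 units (y axis, log scale) against mean level in log2 CPM (x axis) for all 8829 genes, with the 10 genes in colour by role and the 95th percentile of SD as a dashed line. Above the line lie 8 of them, and *H2-D1* (0.42) and *B2m* (0.39) lie below it but above most genes of their level.

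The genes of a role rose and fell together from mouse to mouse, apart from the class I pair *H2-D1* and *H2-K1*. Over the 25 mice Pearson's r between the 6 pairs of class II genes ran from 0.69 to 0.90 with a median of 0.82, and between the 3 pairs of macrophage genes from 0.87 to 0.88. The 3 class I pairs ran from 0.27 to 0.75 with a median of 0.70. The 12 pairs of a class II and a macrophage gene had lower r, from 0.44 to 0.73 with a median of 0.60. That gap was narrower by rho, with medians of 0.76 for class II pairs and 0.68 for these 12. Median r was 0.74 and 0.68 without the 2 mice farthest from the median, 0.71 and 0.62 in Thymol mice and 0.93 and 0.62 in Control mice. Single pairs overlapped, and *H2-Ab1* had rho = 0.75 with *Lyz2* and 0.70 with *Cd74*. Pairs of a class I gene with a class II gene ran from 0.27 to 0.82 (median 0.50), and with a macrophage gene from 0.30 to 0.61 (median 0.43). For comparison, the 95th percentile of r over the 8819 genes outside the 10 was between 0.39 and 0.49, depending on the gene. A permutation test over mice (two-sided, 100000 draws) gave p under 0.05 for 38 of the 45 pairs. Without the 2 mice farthest from the median of the first gene of a pair this number was 30, in Control mice alone it was 29, and in Thymol mice alone it was 23.

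**Figure D3:**
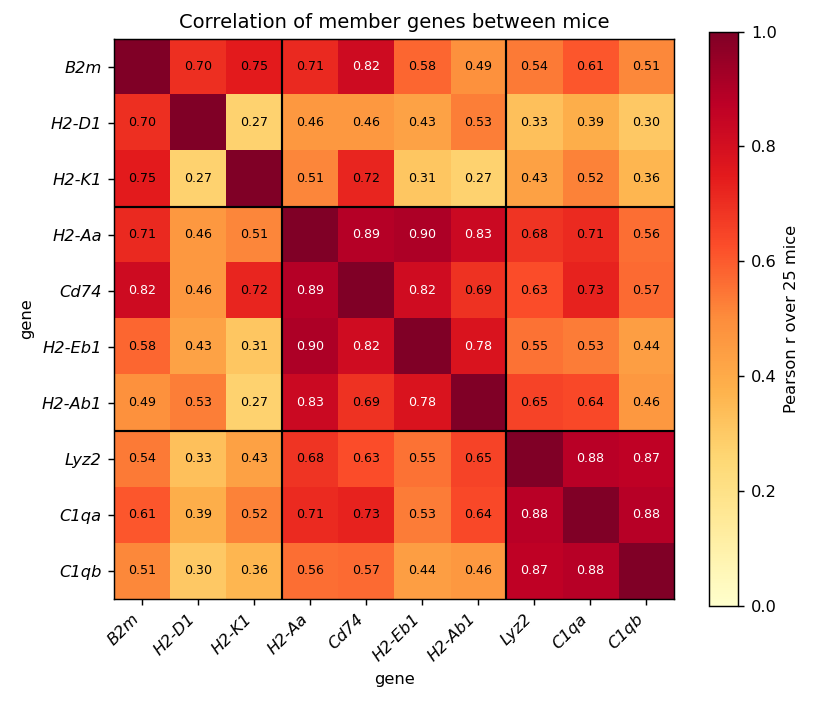
Pearson's r over 25 mice for each pair of the 10 genes (rows and columns), with black lines between class I, class II and macrophage genes and darker colour for higher r. The class II block (0.69 to 0.90) and the macrophage block (0.87 to 0.88) stand out, and the palest cells (0.27) are *H2-K1* with *H2-D1* and with *H2-Ab1*.

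Among class II genes the strongest pair was *H2-Aa* with *H2-Eb1* (r = 0.90, rho = 0.89, permutation p = 1e-05, the smallest the draws can give). Without the 2 farthest mice its r was 0.86, and within Control and Thymol mice it was 0.95 and 0.81. *H2-Aa* and *Cd74*, which lie on different chromosomes, followed each other nearly as closely (r = 0.89, rho = 0.82, permutation p = 1e-05), with 0.84 without the 2 farthest mice and 0.95 and 0.73 within groups. The weakest class II pair was *Cd74* with *H2-Ab1* (r = 0.69, rho = 0.70, permutation p = 0.00019). Its r was 0.52 without the 2 farthest mice and 0.48 in Thymol mice alone (permutation p = 0.0805). The macrophage pairs held in the same way, with *C1qa* and *C1qb* at r = 0.88 (rho = 0.81, permutation p = 1e-05), 0.84 without the 2 farthest mice, 0.90 in Control and 0.89 in Thymol mice. Both *C1qa* with *Lyz2* (r = 0.88, rho = 0.81) and *C1qb* with *Lyz2* (r = 0.87, rho = 0.76) had permutation p = 1e-05, and r of 0.81 and 0.77 without the 2 farthest mice.

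In class I, the light chain gene followed each heavy chain gene, and the heavy chain genes followed each other least. *B2m* had r = 0.75 with *H2-K1* (rho = 0.71, permutation p = 2e-05) and r = 0.70 with *H2-D1* (rho = 0.65, permutation p = 6e-05). These were 0.74 and 0.65 without the 2 mice farthest from the median of the heavy chain gene. *H2-D1* with *H2-K1* had r = 0.27 (rho = 0.23, permutation p = 0.185), with 0.24 without the 2 farthest mice, 0.26 in Control and 0.23 in Thymol mice. A relation between the heavy chain genes was thus not detected at 25 mice. The effect on this r of reads lost or misplaced in the sequence they share was not tested.

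Between class I and class II, *Cd74* gave the highest values. It had r = 0.82 with *B2m* (rho = 0.83, permutation p = 1e-05) and r = 0.72 with *H2-K1* (rho = 0.69, permutation p = 5e-05), with 0.80 and 0.70 without the 2 farthest mice. *H2-K1* had r = 0.31 with *H2-Eb1* (rho = 0.31, permutation p = 0.132) and r = 0.27 with *H2-Ab1* (rho = 0.33, permutation p = 0.19). In Thymol mice alone these 2 values were -0.11 and -0.02, in Control mice 0.51 and 0.52, and the difference between groups was not tested.

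**Figure D4:**
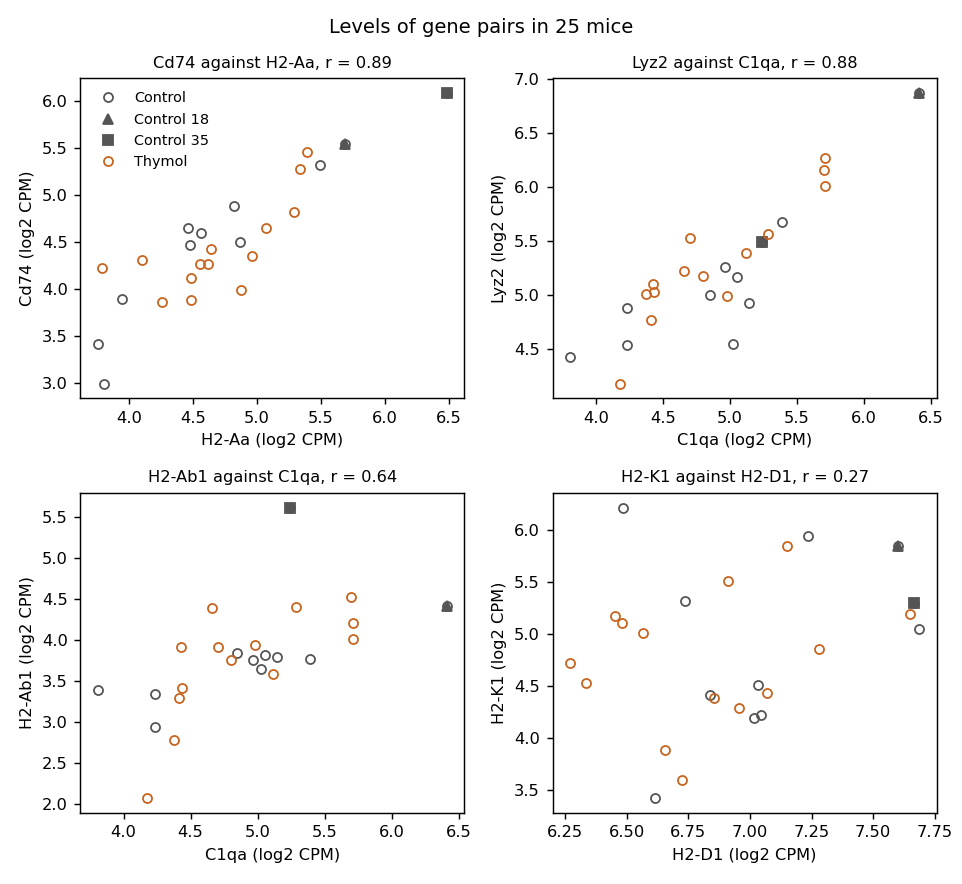
Level in log2 CPM of one gene against another in 25 mice, with 4 panels for *Cd74* against *H2-Aa* (r = 0.89), *Lyz2* against *C1qa* (0.88), *H2-Ab1* against *C1qa* (0.64) and *H2-K1* against *H2-D1* (0.27). Grey points are Control and orange points Thymol mice, Control 35 (square) lies at the upper end of the first panel, and Control 18 (triangle) at that of the second.

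A fit across all genes gave the same comparison with adjustment over the whole table. For each of the 10 genes, every other gene was regressed on its log2 level with treatment in the model (limma, Benjamini-Hochberg over 8828 genes, adjusted p under 0.05). Of the 90 ordered relations between the 10 genes, 44 were positive calls. From *H2-Eb1*, 3 of the other 9 genes were called, namely *H2-Aa*, *Cd74* and *H2-Ab1*, and these were the 3 positive calls of the whole table (0.034% of all genes). The slope of *H2-Aa* on *H2-Eb1* was 0.97 ± 0.09 log2 units per log2 unit (SE, limma adjusted p = 7.87e-08). From *H2-Ab1*, 3 of 9 were called, again the other class II genes, against 0.068% of all genes. From *H2-Aa*, 6 of 9 were called against 0.408% of all genes, and from *Cd74*, 7 of 9 against 0.396%. The 7 genes called from *Cd74* were the 3 other class II genes, *H2-K1*, *B2m*, *Lyz2* and *C1qa*, with slopes from 0.46 ± 0.06 for *B2m* to 0.85 ± 0.09 for *H2-Aa*.

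From the macrophage genes, calls reached across the table. *Lyz2* called 6 of 9 against 2.8% of all genes, *C1qa* 6 of 9 against 2.73% and *C1qb* 4 of 9 against 2.83%. Each called the other 2 macrophage genes, *Cd74* and *H2-Aa*, and neither heavy chain gene was called by any of them. From class I, *B2m* called 6 of 9 against 0.646% of all genes, *H2-K1* called *Cd74* and *B2m* (2 of 9 against 0.034%), and *H2-D1* called *B2m* alone (1 of 9 against 0.532%). Without Control 18 and Control 35 the 44 relations were 27, *H2-Ab1* and *H2-D1* called none of the 10, and *Cd74* and *H2-Aa* called 5 each. The share of all genes called was then 0% from *H2-Ab1*, 0.306% from *H2-D1* and 0.0793% from both *Cd74* and *H2-Aa*.

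The genes most like each of the 10, by r over the 25 mice, differed by role. *Lyz2* was nearest to *Clec10a* (0.90), a lectin of macrophages and dendritic cells, to *Grn* (0.90), the lysosomal progranulin, and to *Pf4* (0.90). *C1qa* was nearest to *Clec10a* (0.92), *Ccl6* (0.90) and *Ifitm3* (0.90), and *C1qb* to *F13a1* (0.91), *Ly6a* (0.91) and *Clec10a* (0.90). *Cd74* was nearest to *Adap2* (0.77), *Ccl8* (0.75) and *Psmb9* (0.75), a catalytic subunit of the immunoproteasome, and *H2-Aa* to *Cybb* (0.78), a subunit of the phagocyte oxidase, *Adap2* (0.76) and *Ccl8* (0.76). *H2-Ab1* was nearest to *Laptm5* (0.76), *App* (0.73) and *Cd47* (0.72), and *H2-Eb1* to *Plekhg3* (0.66), *Cd47* (0.66) and *Meg3* (0.64). *B2m* was nearest to *Psmb9* (0.80), *Apoe* (0.76) and *Mpp1* (0.75), and *H2-K1* to *Cers4*, *Pla2r1* and *Wrn* (0.71, 0.71 and 0.70). *H2-D1* was nearest to *Slc1a3* (0.81), *Pde3b* (0.80) and *Prkar2b* (0.76), of which the second encodes a phosphodiesterase abundant in fat cells.

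Lists of other genes placed these relations. Of 18 macrophage genes outside the 10, 15 were called positively from *Lyz2*, 16 from *C1qa* and 17 from *C1qb*, against 6 from *H2-Aa*, 4 from *Cd74* (*Apoe*, *Mrc1*, *Laptm5* and *Grn*), 3 from *B2m* (*Apoe*, *Mrc1* and *Grn*), 1 from *H2-Ab1* (*Laptm5*) and 0 from *H2-Eb1*, *H2-D1* and *H2-K1*. The share of all genes called ran from 0.034% to 2.83% between these fits, so a count of 0 does not show that a relation is absent. As a sum, the 18 genes had r = 0.51 with *H2-Eb1* and 0.52 with both *H2-D1* and *H2-K1* (rho = 0.58, 0.46 and 0.48). Without the 2 farthest mice these r were 0.53, 0.38 and 0.48. With the other MHC genes the sum had r from 0.52 to 0.68, and with the macrophage genes from 0.80 to 0.87. Without Control 18 the counts from *Lyz2*, *C1qa* and *C1qb* were 10, 12 and 13, and those from *H2-Aa*, *Cd74*, *B2m* and *H2-Ab1* were 2, 1, 1 and 1. The share of all genes called fell as well, to 1.01%, 0.804% and 0.986% for *Lyz2*, *C1qa* and *C1qb*. It fell to 0.181% for *H2-Aa*, 0.147% for *Cd74*, 0.215% for *B2m* and 0.0566% for *H2-Ab1*. Without Control 18 and Control 35 together the counts were 8, 12 and 12 from the macrophage genes and 0 from *H2-Aa*, *Cd74*, *B2m* and *H2-Ab1*. The share of all genes called was then 0.646%, 0.668% and 0.827% from *Lyz2*, *C1qa* and *C1qb*. From *H2-Aa* and *Cd74* it was 0.0793% each, from *B2m* 0.034% and from *H2-Ab1* 0%, so hardly any gene was called from these. Fibroblast genes moved with the macrophage genes in the same mice. Of 8 fibroblast genes, such as the collagens *Col1a2* and *Col3a1*, 7 were called from *Lyz2*, 6 from *C1qa* and 7 from *C1qb*, and none from a class I or class II gene. Control 18 also had the highest summed fibroblast level, 4956 CPM against a Control median of 1899 CPM, and without that mouse the counts were 2, 0 and 5. The summed level had r = 0.78 with *Lyz2*, 0.74 with *C1qa* and 0.81 with *C1qb* (rho = 0.64, 0.61 and 0.67), and r without the 2 farthest mice was 0.62, 0.54 and 0.65. It also had r = 0.46 with *H2-Ab1* (rho = 0.51, permutation p = 0.0272) and 0.44 with *H2-Aa* (rho = 0.40, permutation p = 0.03). Without the 2 farthest mice these were 0.50 and 0.33. For the other MHC genes r ran from 0.25 (*H2-K1*) to 0.38 (*Cd74*), with permutation p of 0.0602 or larger.

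Adipocyte genes were called from *H2-D1*, and over all 25 mice from no other of the 10. Of 7 adipocyte genes measured, 5 were called from *H2-D1* (*Adipoq*, *Plin1*, *Cidec*, *Cfd* and *Retn*), with slopes from 2.65 ± 0.47 for *Retn* to 3.09 ± 0.45 log2 units per log2 unit for *Plin1*, which coats the fat droplet. The limma adjusted p was 0.000309 for *Adipoq*, the hormone adiponectin, and without Control 19 a single one was called from *Lyz2* as well. The count was 5 as well without Control 18, without Control 35, and without Control 19, the mouse with the most *Adipoq* (150 CPM against a Control median of 17.03 CPM). Over 25 mice *H2-D1* had r = 0.74 with *Adipoq* (rho = 0.69, permutation p = 5e-05) and r = 0.63 without the 2 mice farthest from the median of *Adipoq*. The other 9 genes had r from 0.28 (*C1qb*) to 0.49 (*B2m*) with *Adipoq*, and *B2m*, *C1qa*, *H2-Ab1* and *Cd74* had permutation p of 0.0131, 0.0216, 0.0251 and 0.0334. Without the same 2 mice their r ran from 0.31 (*H2-K1*) to 0.62 (*H2-Ab1* and *C1qa*), against 0.63 for *H2-D1*, so the relation to *Adipoq* is not shown to be particular to *H2-D1*. The summed level of the 7 adipocyte genes had a weaker relation to *H2-D1*, with r = 0.47 (permutation p = 0.0175), rho = 0.37 (permutation p = 0.0724) and r = 0.29 without the 2 farthest mice. That sum ran from 1300 to 4978 CPM over the mice, against 2.71 to 150 CPM for *Adipoq*. Other genes of the list thus made up most of it, and its r need not follow that of *Adipoq*. These correlations are among 180 relations to lists, marker genes and technical measures that were computed, and no difference between the 10 genes in this respect was tested. The endothelial list gave 1 called gene of 12 from *H2-D1*, *Fabp4*, which fat cells make as well. *Ly6c1* of that list was called positively from *B2m* and the 3 macrophage genes, and *Kdr* negatively from *C1qa*. The summed endothelial level had r = 0.69 with *H2-D1* (rho = 0.56, permutation p = 6e-05) and 0.50 with *B2m* (rho = 0.51, permutation p = 0.0104). Without the 2 farthest mice these were 0.54 and 0.49. For the other genes r ran from 0.03 to 0.31, and from 0.34 to 0.50 without those mice. *Pecam1*, a single gene of the endothelial list, did not share this pattern. Its r with the 10 genes ran from 0.01 (*H2-D1*) to 0.23 (*B2m*), with permutation p of 0.257 or larger. A summed level follows the most abundant genes of its list, so a relation of *H2-D1* to endothelial cells is not shown.

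Interferon response genes, whose products include activators of MHC genes, moved with the 10 genes as a sum, while few were called singly. The summed level of the 17 measured, 456 to 648 CPM over the mice, had positive r with all 10, from 0.44 (*H2-Ab1*, rho = 0.41) and 0.45 (*H2-D1*, rho = 0.39) to 0.74 (*Cd74*, rho = 0.66) and 0.81 (*B2m*, rho = 0.73). The permutation p was 0.0283, 0.0259, 4e-05 and 1e-05 for these 4, and between those bounds for the others. Without the 2 farthest mice r was 0.71 for *B2m*, 0.69 for *Cd74*, 0.64 for *H2-K1*, 0.56 for *H2-Eb1* and 0.55 for *H2-Aa*, and between 0.30 (*Lyz2*) and 0.45 (*C1qa*) for the other 5. Of single genes, *Ifitm3* was called positively from *Cd74*, *H2-Aa*, *B2m* and the 3 macrophage genes, and *Gbp7* from *B2m* and *C1qa*. In the other direction, *Ifngr2* was called negatively from *C1qa* (slope -0.27 ± 0.06, SE, limma adjusted p = 0.0117). Without Control 18 the list's count of positive calls was 0 from *H2-Aa* and *B2m* and 1 from *Cd74* and from each macrophage gene. Without Control 18 and Control 35 it was 0 from *Cd74* too. The share of all genes called fell as well. From *H2-Aa*, *B2m* and *Cd74* it went from 0.408%, 0.646% and 0.396% over all mice to 0.181%, 0.215% and 0.147% without Control 18. Without both mice it was 0.0793%, 0.034% and 0.0793%, so the lower counts are not shown to be particular to interferon genes. *Psmb9*, which interferon induces, had r = 0.80 with *B2m* (rho = 0.75, permutation p = 1e-05) and was called from *B2m*, *Cd74* and *H2-Aa*, in each case as the 1 called gene of 11 others in the class I list. Without Control 18 and Control 35 that list gave 1 call from *B2m* and 0 from *Cd74* and *H2-Aa*, and without Control 18 alone 0 from *H2-Aa*. The same lower shares of all genes called apply to these counts. *Tapbp* of the same list was called from the 3 macrophage genes and *Calr* from *C1qa* and *C1qb*, but neither without Control 18. The share of all genes called from *Lyz2*, *C1qa* and *C1qb* was then 1.01%, 0.804% and 0.986%, against 2.8%, 2.73% and 2.83% over all mice. The class I list's sum without the 10 had r of 0.78 to 0.81 with macrophage genes, 0.65 with *B2m*, 0.54 with *H2-D1* and 0.40 with *H2-K1*. Without the 2 farthest mice r was 0.61 to 0.66 with macrophage genes, 0.43 with *B2m*, 0.44 with *H2-D1* and 0.19 with *H2-K1*. The class II list gave *Ifi30* and *Ctss* from each macrophage gene and *Ifi30* from *B2m*. Its sum without the 10 had r of 0.70 to 0.78 with macrophage genes and 0.51 to 0.61 with class II genes. Without the 2 farthest mice these were 0.64 to 0.76 and 0.33 to 0.43.

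The level of a marker list was also taken out, a step chosen after the data were seen. When the summed level of the 18 macrophage genes was regressed out of each gene, the median r of the 6 class II pairs went from 0.82 to 0.75, that of the 3 macrophage pairs from 0.88 to 0.60 and that of the 3 class I pairs from 0.70 to 0.55. Between roles, it went from 0.60 to 0.25 for class II with macrophage genes, from 0.50 to 0.25 for class I with class II genes and from 0.43 to -0.15 for class I with macrophage genes. When the summed level of the 17 interferon response genes was regressed out instead, the median was 0.76 for class II pairs, 0.81 for macrophage pairs and 0.41 for class I pairs. It was 0.37 for class II with macrophage genes, 0.26 for class I with class II genes and 0.11 for class I with macrophage genes. With the adipocyte or the endothelial list regressed out, the median of the class I pairs was 0.75 and 0.56, in that order. It was 0.83 and 0.82 for class II pairs and 0.89 and 0.88 for macrophage pairs. Between roles it was 0.60 and 0.61 for class II with macrophage genes and 0.50 and 0.47 for class I with class II genes. For class I with macrophage genes it was 0.44 and 0.42. The lower class I median was thus not particular to 1 list. These values are descriptions over the same 25 mice.

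Depth and library number moved little with the 10 genes. Pearson's r with the log2 number of reads lay between -0.01 and 0.33, and with the library number in the labels between 0.02 and 0.27. Permutation p was 0.113 or larger for each.

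Thymol moved none of the 10 genes past the threshold. No gene of the table had an adjusted p under 0.05 (0% of 8829, limma with Benjamini-Hochberg adjustment), and each of the 10 had an adjusted p of 0.9999. Unadjusted p was under 0.05 for 0 of the 10, against 3.53% of all genes. Of the 10 differences, 8 were below 0 and 2 above, with a median of -0.09 log2 units against -0.001 for all genes. Thymol minus Control was -0.28 ± 0.15 for *H2-D1* (SE, 95% interval -0.57 to 0.02, unadjusted limma p = 0.0693), with means of 6.81 and 7.09 log2 CPM, and the Control median was above 10 of the 14 Thymol mice. It was -0.22 ± 0.14 for *B2m* (-0.51 to 0.06, p = 0.125) and -0.20 ± 0.26 for *H2-K1* (-0.73 to 0.34), and for both the Control median was above 9 of the 14 Thymol mice.

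For class II the difference was -0.16 ± 0.25 for *Cd74* (SE, 95% interval -0.67 to 0.35), -0.12 ± 0.25 for *H2-Ab1* (-0.62 to 0.38), -0.06 ± 0.24 for *H2-Aa* (-0.54 to 0.43) and 0.10 ± 0.23 for *H2-Eb1* (-0.36 to 0.56). For macrophage genes it was -0.05 ± 0.22 for *C1qa* (-0.50 to 0.40), -0.03 ± 0.25 for *C1qb* (-0.55 to 0.49) and 0.15 ± 0.22 for *Lyz2* (-0.31 to 0.61). The intervals leave room for changes of up to about 0.7 log2 units in class II and macrophage genes, so the data do not show that the groups are alike. Control 18 and Control 35 are both in the Control group and were singled out for their high values, so leaving them out raises each difference by the choice itself. It gave 0.39 for *H2-Eb1* (unadjusted limma p = 0.0222), 0.38 for *Lyz2* (p = 0.0604) and -0.15 for *H2-D1* (p = 0.296), and none had an adjusted p under 0.05.

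**Figure D5:**
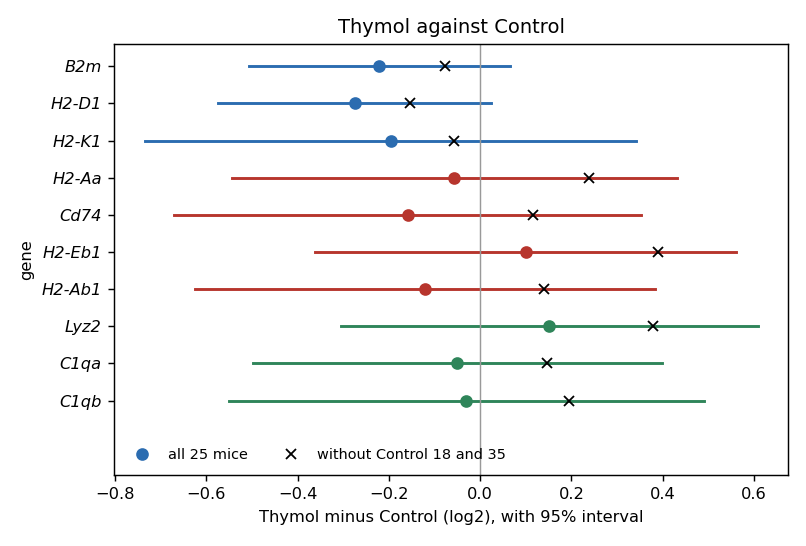
Difference Thymol minus Control in log2 units (x axis) for each of the 10 genes (y axis), with dots for the estimate over 25 mice (limma), lines for its 95% interval and crosses for the estimate without Control 18 and Control 35. Colours are blue for class I, red for class II and green for macrophage genes, and all 10 intervals include 0.

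The genes around the 10 did not pass the test either. Of 10 class II list genes measured (the 4 above included), 0 had an adjusted or unadjusted p under 0.05, and the list's median difference was -0.04. Of the 6 others, *Rfxap*, a subunit of the RFX complex, had -0.18 ± 0.11 and *Rfx5*, another, 0.17 ± 0.18. Of 14 class I list genes, 0 passed after adjustment and 1, *Psmb10*, had an unadjusted limma p under 0.05 (-0.19 ± 0.09, p = 0.037, adjusted p = 0.9999), with a list median of -0.05. *Psmb8*, another subunit of the immunoproteasome, had -0.34 ± 0.20. Of 21 macrophage genes and of 17 interferon response genes, 0 had a p under 0.05 before or after adjustment, with medians of -0.03 and -0.02. *Jak2*, a kinase of interferon receptors, had 0.18 ± 0.13. Among the 12 endothelial, 8 fibroblast, 7 adipocyte, 10 myofibre and 5 red blood cell genes, 1 had an unadjusted p under 0.05, the endothelial receptor *Tie1* (-0.27 ± 0.11, limma p = 0.0194, adjusted p = 0.9999), named after its value was seen. The list medians were -0.07, -0.13, 0.003, -0.004 and -0.14 in that order, and the 1 dendritic cell gene, *Zbtb46*, was at -0.24.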

How the data were processed

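Per the labels and the study's methods, the authors aligned the tags with STAR 2.5.3 to GRCm38, took gene counts with HTSeq 0.6.1 (Ensembl 101), kept genes with at least 30 reads in at least 6 samples and scaled libraries by TMM. The deposited values are log2 CPM for 8829 genes in 25 libraries. Whole reads, recovered from the steps between values (tolerance 0.1 read, 100% of values), gave depth and counting error, and 0 reads is at -1.90. Groups follow the treatment named in each label. The 10 genes and all gene lists were chosen with earlier results of these data known. Genes named were the 10, the 3 other genes of the class II, class I, macrophage and interferon lists with the smallest p in each direction (not all are printed), and the 3 genes with the highest r to each of the 10. Others are marked.

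limma 3.58.1 (R 4.3.3, statmod 1.5.0; trend, two-sided, Benjamini-Hochberg over all genes, threshold 0.05) was used because the values are on a log2 scale, where the authors used a count model. Scripts were tested on simulated data. Correlations used numpy 2.4.6 and pandas 2.3.3, figures matplotlib 3.10.9. Alternatives were quantile normalization, median centring, the 75% of genes with the highest mean, no trend, robust moderation, sample weights, a block for the first label number, library number as a covariate, voom on recovered reads and each mouse left out. Leaving out Control 18 and 35, or 19, was added after seeing the data.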

Additional observations from a re-analysis of the deposited data

How the results depend on the processing

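No alternative gave a member of the 10 an adjusted p under 0.05 in Thymol against Control (limma), and the smallest p over all genes was not below it either. The number of the 10 with an unadjusted p under 0.05, 0 over all mice, was 0 to 1 when each mouse was left out in turn (*H2-D1* without Control 10, 27 or 31 or Thymol 7 or 21, *B2m* without Thymol 28) and 1 (*H2-Eb1*) without Control 18 and 35. Positive relations among the 10 in the fits, 44 of 90, were 33 to 47 when each mouse was left out and 27 without Control 18 and 35. Pairs with a permutation p under 0.05, 38 of 45, were 32 to 41 when each mouse was left out and 23 in Thymol mice alone. The number of genes above the 95th percentile of SD, 8, was 5 to 8 when each mouse was left out, the lowest without Control 35, and 3 without Control 18 and 35.

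Differences close to 0 changed sign. Without Control 18 and 35, which were chosen for their high values, *Cd74* was at 0.12, *H2-Aa* at 0.24, *H2-Ab1* at 0.14, *C1qa* at 0.15 and *C1qb* at 0.19. With voom on recovered reads, *C1qa* was at 0.0031 and *C1qb* at 0.023. When each mouse was left out, *H2-Aa* ran from -0.16 to 0.12, *H2-Ab1* from -0.21 to 0.056, *C1qa* from -0.16 to 0.10 and *C1qb* from -0.11 to 0.15, while *H2-D1* stayed between -0.34 and -0.22 and *B2m* between -0.28 and -0.15. Of the pairs, *H2-K1* changed sign with *H2-Ab1* (-0.016) and *H2-Eb1* (-0.11) in Thymol mice alone. The causes were not tested.

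The first number of the label, shared by mice of both groups, was used as a block. What it stands for is not given in the sources used here. The correlation within blocks was -0.04, the block left 0 of the 10 called for thymol and 44 relations, and it changed no call. The fits on voom values were made for thymol only. Depth limits *H2-Ab1*, *H2-Eb1* and *C1qb* most, with 21 to 50 reads in their lowest mouse.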
